A study of Homo sapiens with 2 samples.

Results

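Of the 137412 OTX2 binding peaks deposited for D283 tumorspheres, 13663 (9.94%) lay on chromosome 1. Members were taken by position alone. The 7041 peaks whose summit lay below 121.7 Mb of GRCh38 were assigned to the short arm, the 6622 peaks with a summit above 143 Mb to the long arm, and 0 peaks fell between these boundaries. The arms belong to the same cells, the same immunoprecipitation and the same peak list, so that they share antibody, depth and peak calling.

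D283 is an established cell line derived from a medulloblastoma, a cerebellar tumour of childhood. The cells were grown as tumorspheres, floating clusters that enrich for self-renewing cells, in serum-free neural medium with epidermal and basic fibroblast growth factors. They expressed OTX2, and the paper calls them OTX2high, a name it also gives to its nonsilencing (scramble) controls. In 1 library, chromatin was immunoprecipitated with the anti-OTX2 antibody ab21990. In 1 input library, the same kind of sonicated chromatin was sequenced with no antibody. As the files hold peaks and no transcript levels, markers of the cell type could not be checked. There were no replicate libraries, so no difference could be set against a spread between replicates, and no test was run. Every interval below covers counting error only. It is a 95% interval, except that for a ratio of medians the bounds of both medians were combined, which gives a wider one.

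OTX2 is a homeodomain transcription factor that patterns the fore- and midbrain, drives retinal and pineal genes and is often highly expressed in Group 3 and Group 4 medulloblastoma. Its homeodomain binds DNA at the core TAATCC and its variant TAATCT. In chromatin immunoprecipitation sequencing, fragments bound by the factor pile up at its binding sites, and a peak caller weighs that pile against the input. The number of input fragments at a place follows how many copies of it the cells hold, how well it can be aligned and how its bases amplify. A peak over more input needs more immunoprecipitated fragments to be called.

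The promoters below were picked to show OTX2 cores under strong peaks of each arm. They are the first 3 per arm, by fold enrichment, among RefSeq promoters that held both a summit and a core, with SRGAP2 added as the parent of the duplicated copies SRGAP2B and SRGAP2C. The short arm promoters of highest fold enrichment, SASS6 and TRMT13 (28.4) and WDTC1 (24.5), held no core. On the long arm the highest, SRGAP2B, did. Each line gives the 250 bases before the RefSeq transcription start (GRCh38.p14) on the strand of the gene, 5′ to 3′. Capitals mark TAATCC and TAATCT on either strand, so that a core on the opposite strand reads GGATTA or AGATTA.
USP1 (chr1:62436145-62436394, plus strand): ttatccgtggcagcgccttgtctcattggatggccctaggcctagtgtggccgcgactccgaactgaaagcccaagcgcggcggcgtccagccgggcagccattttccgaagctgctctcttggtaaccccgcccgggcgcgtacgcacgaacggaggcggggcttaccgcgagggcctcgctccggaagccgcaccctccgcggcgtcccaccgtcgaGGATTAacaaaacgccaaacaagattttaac
ADGRL2 (chr1:81801192-81801441, plus strand): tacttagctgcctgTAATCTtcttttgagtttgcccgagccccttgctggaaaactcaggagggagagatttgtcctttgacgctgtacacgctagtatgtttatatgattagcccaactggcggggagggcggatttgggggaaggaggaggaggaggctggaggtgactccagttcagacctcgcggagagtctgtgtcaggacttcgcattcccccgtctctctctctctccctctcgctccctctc
SRGAP2C (chr1:121184725-121184974, plus strand): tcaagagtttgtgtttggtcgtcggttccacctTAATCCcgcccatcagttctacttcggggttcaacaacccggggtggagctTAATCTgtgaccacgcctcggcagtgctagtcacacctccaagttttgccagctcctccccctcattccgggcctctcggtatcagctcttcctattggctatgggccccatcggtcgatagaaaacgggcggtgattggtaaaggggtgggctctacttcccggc
SRGAP2B (chr1:145095381-145095630, minus strand): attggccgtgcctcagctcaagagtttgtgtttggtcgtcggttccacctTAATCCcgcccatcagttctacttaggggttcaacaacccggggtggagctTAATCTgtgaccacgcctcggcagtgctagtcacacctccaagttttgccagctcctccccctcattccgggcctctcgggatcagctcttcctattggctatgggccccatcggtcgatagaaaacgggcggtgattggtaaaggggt
DHX9 (chr1:182839097-182839346, plus strand): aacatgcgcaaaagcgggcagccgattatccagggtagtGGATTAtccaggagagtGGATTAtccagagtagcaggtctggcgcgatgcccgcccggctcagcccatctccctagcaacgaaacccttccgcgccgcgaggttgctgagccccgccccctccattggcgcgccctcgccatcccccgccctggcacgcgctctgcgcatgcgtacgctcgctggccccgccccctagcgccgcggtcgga
SEMA6C (chr1:151146632-151146881, minus strand): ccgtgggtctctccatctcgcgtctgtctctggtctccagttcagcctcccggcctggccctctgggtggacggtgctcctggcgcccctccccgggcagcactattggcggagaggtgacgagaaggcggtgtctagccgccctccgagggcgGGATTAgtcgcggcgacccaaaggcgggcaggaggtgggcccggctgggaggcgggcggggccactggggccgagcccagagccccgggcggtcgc
SRGAP2 (chr1:206203291-206203540, plus strand): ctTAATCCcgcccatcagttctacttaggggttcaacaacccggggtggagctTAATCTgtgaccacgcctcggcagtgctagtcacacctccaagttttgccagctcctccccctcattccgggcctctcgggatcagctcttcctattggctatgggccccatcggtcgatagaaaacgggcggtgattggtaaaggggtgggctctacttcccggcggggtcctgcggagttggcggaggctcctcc

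On the short arm, the summit at USP1, a deubiquitinase of DNA repair, lay 21 bp from the centre of its core, with 172 ChIP fragments (147 to 200) and a fold enrichment of 24.5. The summit at ADGRL2, a latrophilin adhesion receptor, had 172 fragments as well and lay 41 bp from the core. Among those of the long arm, the summit at DHX9, an RNA helicase, lay 8 bp from the nearer of its 2 cores, with 353 fragments (317 to 392). The summit at SEMA6C, a transmembrane semaphorin, lay 5 bp from its core.

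SRGAP2, a GTPase-activating protein of neuronal migration, has partial copies on both sides of the centromere. SRGAP2 had 307 fragments at a fold enrichment of 18.9, SRGAP2B had 281 at 33.4, and SRGAP2C on the short arm had 197 at 20.6. In these 3 promoters the nearest core lay 7, 0 and 1 bp from the summit. The promoter of SRGAP2 equalled that of SRGAP2B in 202 of 202 aligned bases and that of SRGAP2C in 217 of 219 (99.1%). How reads that align to several copies were assigned is not given in the sources used here, and the heights of the 3 copies are uncertain for that reason.

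A core on either strand was present in 10.6% of all 22199 RefSeq promoters of 300 bases, 250 before to 50 after the start, with several starts for some genes. The share was 10.4% (130 of 1248) on the short arm and 11.7% (133 of 1132) on the long arm. Among short arm promoters that held a summit, 37 of 303 had a core (12.2%, Wilson interval 8.99 to 16.4), against 9.84% of those with none. The long arm shares were 46 of 266 (17.3%, 13.2 to 22.3) and 10.0%. Promoters that held both a summit and a core had a median of 79 fragments on the short arm and 108 on the long arm, against 47 and 70 where the summit came with no core. The median GC content of the promoters was 63.7% on the short arm and 58.7% on the long arm, and its part in these shares was not tested.

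Peaks were slightly denser on the long arm. The short arm, 121.7 Mb long, had 57.9 peaks per Mb (56.5 to 59.2) and the long arm, 105.9 Mb long, had 62.5 (61 to 64.0). The ratio of long to short was 1.08 (exact conditional binomial interval 1.04 to 1.12). Counted per protein-coding gene in place of per Mb, the ratio was 1.03 with an interval that includes 1 (0.999 to 1.07). It fell below 1 under some choices of peaks: it was 0.974 (0.932 to 1.02) over peaks of at least 5-fold enrichment and 0.971 (0.938 to 1.01) without peaks of high local input, as defined below.

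Long arm peaks were taller and stood on more input. Peak height is given as the number of ChIP fragments at the summit, which the deposited pileup values allow to be recovered. The median height was 50 fragments (order-statistic interval 49 to 52) on the short arm and 63 (62 to 64) on the long arm, a ratio of 1.26 (1.19 to 1.31). Short arm peaks ranged from 15 to 370 fragments and long arm peaks from 16 to 437. The arms thus overlapped almost entirely in range and differed in where their values were centred.

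The local input that the peak caller had used was implied by the pileup and the fold enrichment of each peak. It cannot go below 3.98, the floor set by the genome mean. Its unit was taken as 1 input fragment, because 54.3% of the values above the floor came within 0.01 of a whole number. The sources used here do not state this unit, so the ratio between the arms is firmer than the inputs themselves. Its median was 4.98 (4.91 to 5.00) on the short arm and 7.25 (7.23 to 7.46) on the long arm, a ratio of 1.46 (1.45 to 1.52). The median over all peaks of the series was 5.00. The short arm thus stood close to the series and the long arm above it.

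The floor separated the arms further. On the short arm 1767 peaks (25.1%, Wilson interval 24.1 to 26.1) stood at the floor, near the 26.4% of all peaks. The long arm had 97 such peaks (1.46%, 1.20 to 1.78). The difference was -23.6 percentage points (-24.7 to -22.6). At the other end, 793 long arm peaks (12%) and 148 short arm peaks (2.1%) stood on an input of 12 or more, which is 3 times the floor, against 4.22% of all peaks. These are the peaks of high local input.

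Relative to input the order turned. The median fold enrichment was 6.08 (5.94 to 6.15) on the short arm and 5.50 (5.39 to 5.63) on the long arm, a ratio of 0.905 (0.876 to 0.949). The median −log10 q, which grows with both height and enrichment, was 16.6 on the short and 18.5 on the long arm. Peak length hardly differed, with medians of 445 bp (437 to 452) and 450 bp (443 to 456). Local input and height moved together between the arms, and the part of input in the heights was not tested.

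**Figure D1:**
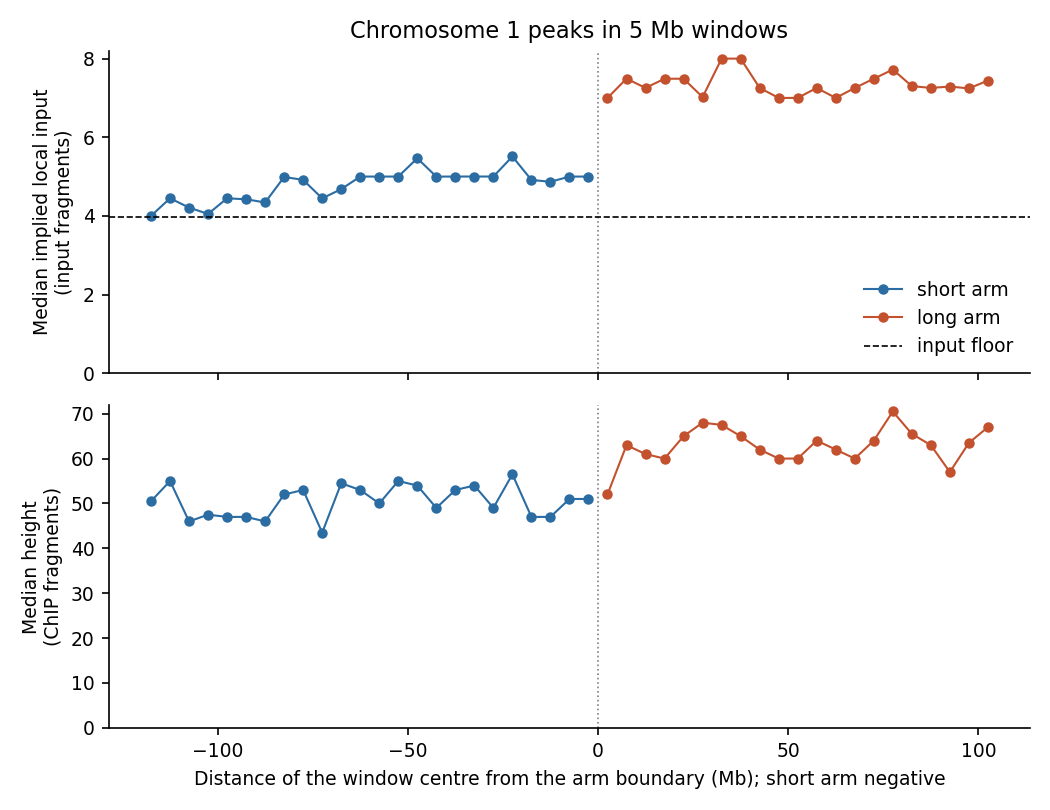
Median implied local input (upper panel, input fragments) and median height (lower panel, ChIP fragments) of the peaks in 5 Mb windows, by distance of the window centre from the arm boundary in Mb, with the short arm negative and the stretch between the boundaries left out. Short arm windows lie between 4.00 and 5.51 input fragments and long arm windows between 7.0 and 8.0, while heights overlap in part.

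The step in input was found along the whole of both arms. In 5 Mb windows counted from the boundaries, the median input ran from 4.00 to 5.51 over the 24 short arm windows and from 7.0 to 8.0 over the 21 long arm windows, so that 0 windows overlapped. The window next to the boundary had a median of 5.00 on the short arm and 7.0 on the long arm. The single peaks nearest to the boundaries differed in input, with overlapping intervals of height. The last short arm peak (chr1:121566468-121566746) had 39 fragments (27.7 to 53.3) at an input of 4.21. The first long arm peak (chr1:143403617-143403903) had 47 fragments (34.5 to 62.5) at an input of 10.0, above the median of its window.

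Within the short arm the input was not level. The 2812 peaks within 50 Mb of the boundary had a median of 5.00 with 19.8% at the floor, and the 4229 peaks farther out had 4.68 with 28.6% at the floor. The share at the floor ran from 10.6% to 46.3% over the short arm windows and from 0% to 3.81% over the long arm windows. In the short arm window farthest from the centromere, 46.3% of 108 peaks were at the floor.

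Height overlapped more than input. Window medians were 43.5 to 56.5 fragments on the short arm and 52.0 to 70.5 on the long arm, with 10 of 24 short arm windows and 1 of 21 long arm windows inside the range of the other arm. Fold enrichment ran from 5.51 to 7.02 and from 4.91 to 6.05, with 12 and 13 windows inside. Density did not separate the arms: it ran from 21.6 to 85.8 peaks per Mb on the short arm and from 28.8 to 84.6 on the long arm, and 21 windows of each arm lay inside the range of the other.

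**Figure D2:**
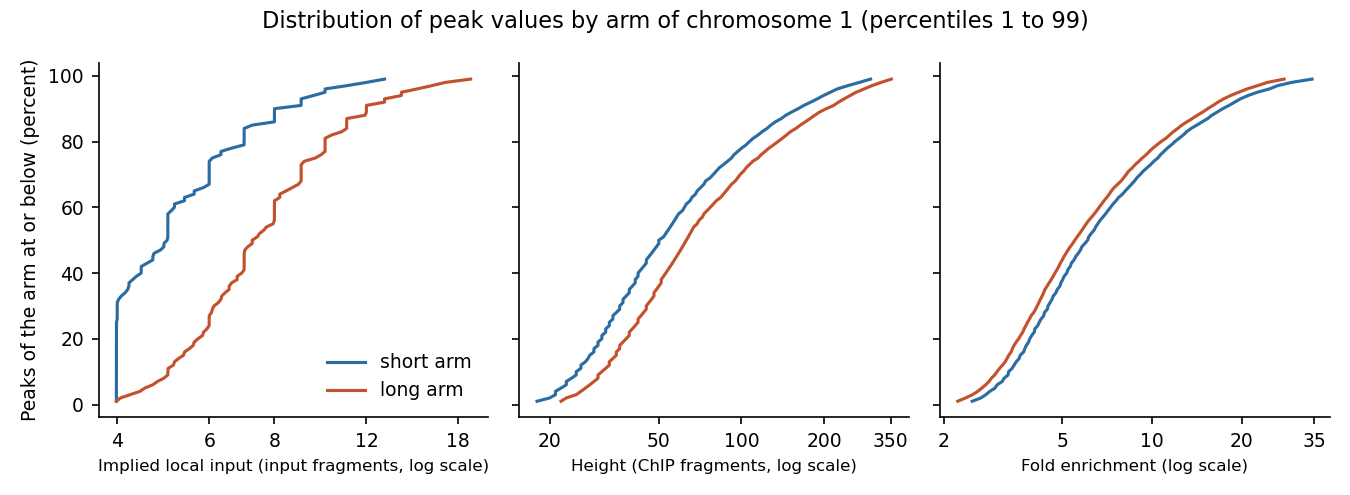
Cumulative share of the peaks of each arm (percent, percentiles 1 to 99) against implied local input (input fragments), height (ChIP fragments) and fold enrichment, each on a log scale. The long arm lies to the right of the short arm for input and height and slightly to its left for fold enrichment, and the short arm rises steeply at the input floor of 3.98.

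The shift in height held over the whole distribution. The ratio of long to short arm height was 1.23 at the 5th percentile, 1.27 at the 25th, 1.26 at the median, 1.25 at the 75th and 1.19 at the 99th. The ratio of inputs was 1.46 at the median, 1.57 at the 75th percentile and 1.46 at the 99th. At the 25th percentile it was 1.5, but there and below the short arm sat at the floor, which limits the ratio. The ratio of fold enrichments was 0.903 at the 5th percentile and 0.806 at the 99th.

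**Figure D3:**
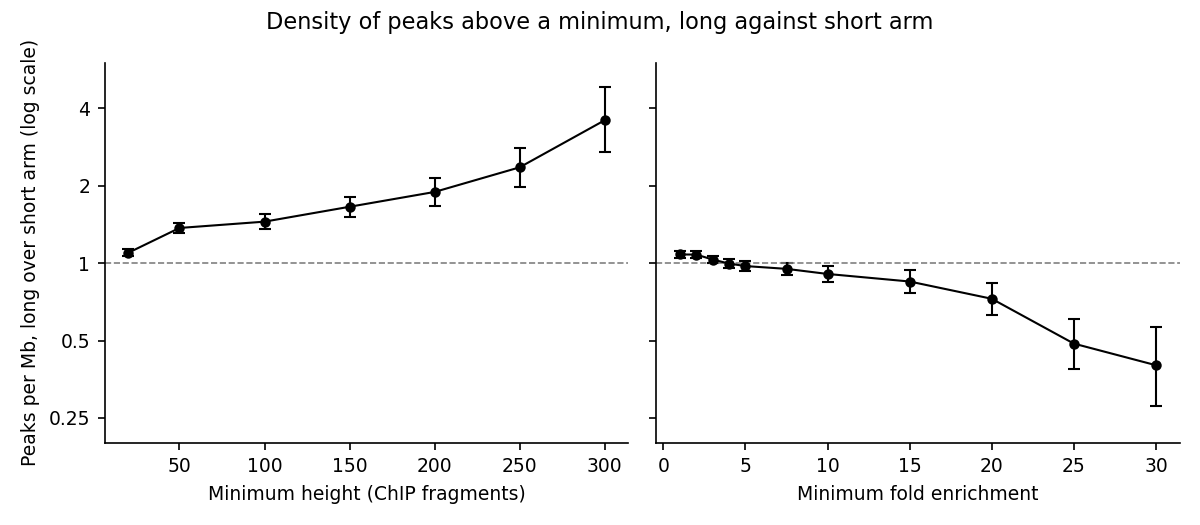
Ratio of peaks per Mb, long over short arm, on a log scale, among peaks of at least a given height in ChIP fragments (left) or fold enrichment (right), with exact 95% binomial intervals for counting error and a dashed line at 1. The ratio climbs from 1.10 to 3.59 with minimum height and falls from 1.08 to 0.401 with minimum fold enrichment.

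The denser arm therefore depended on what counted as a strong peak. Peaks of at least 100 fragments numbered 12.9 per Mb on the short arm and 18.7 on the long arm (ratio 1.45, 1.36 to 1.55). Peaks of at least 300 fragments numbered 63 and 197, or 0.518 and 1.86 per Mb (ratio 3.59, 2.69 to 4.85). By fold enrichment the order was the opposite. Peaks of at least 10-fold enrichment numbered 1865 and 1473, a ratio of densities of 0.907 (0.847 to 0.972). At 30-fold or more there were 129 short arm and 45 long arm peaks, a ratio of 0.401 (0.279 to 0.567).

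Such an unequal pair of arms was uncommon in this peak list. On 17 other chromosomes with at least 500 peaks on both sides of their longest stretch without a summit, the ratio of long to short arm input had a median of 1.00 and ran from 0.852 to 2.24. Only chromosomes 8 (2.24) and 17 (1.76) exceeded chromosome 1 (1.46), and chromosome 6 followed at 1.07. The ratio of heights on these chromosomes ran from 0.961 to 1.5. On chromosome 17 the median input went from 3.99 on the short arm to 7.0 on the long arm and the height from 48 to 61 fragments. On that chromosome the density ratio was 2.52, against 1.08 on chromosome 1.

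**Figure D4:**
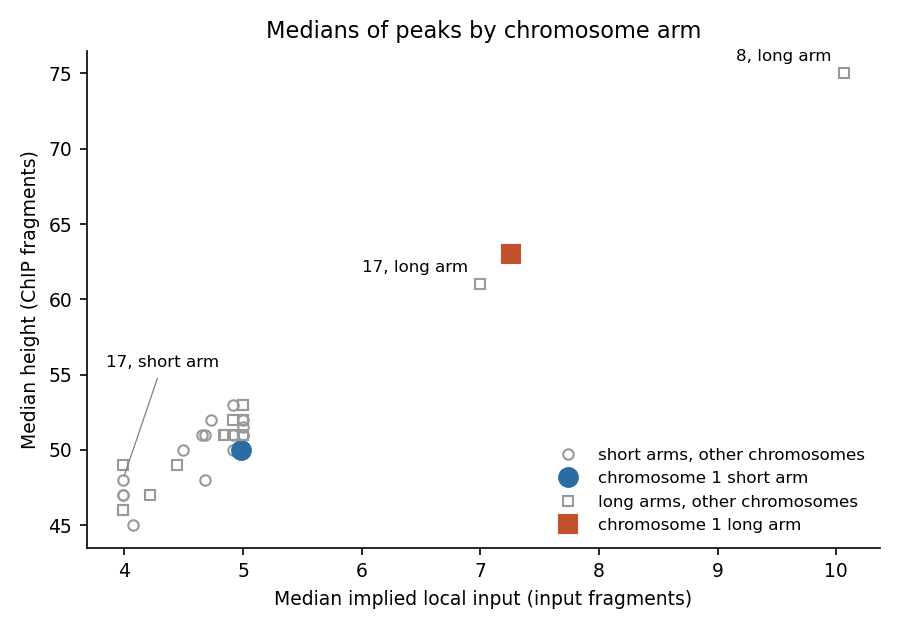
Median height (ChIP fragments) against median implied local input (input fragments) of the peaks of each arm of chromosome 1 and of 17 other chromosomes, circles for short arms and squares for long arms. The chromosome 1 short arm (4.98, 50) lies among the other arms and the long arm (7.25, 63) lies beside the long arm of chromosome 17.

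Over all 34 arms of those 17 chromosomes, median inputs ran from 3.99 to 10.1 and median heights from 45 to 75 fragments, and both arms of chromosome 1 lay inside these ranges. Without chromosomes 7, 8, 16, 17 and X, which were set aside after their values were seen, 24 arms had median inputs of 4.07 to 5.00 and median heights of 45 to 53 fragments. The short arm of chromosome 1 (4.98 and 50) lay inside both of these narrower ranges and its long arm (7.25 and 63) outside both, which the choice of chromosomes largely sets.

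The arms differed in input in each class of position tried. Within 1 kb of a protein-coding transcription start site (TSS), the median input was 5.00 on the short arm and 7.72 on the long arm. In introns it was 5.00 and 7.49, and outside protein-coding genes 4.91 and 7.02. Over 5 such classes the ratio of inputs ran from 1.43 to 1.60 and the ratio of heights from 1.21 to 1.44. The largest ratio of heights was at the TSS, with 44.5 fragments on the short arm and 64 on the long arm, where fold enrichment was nearly level (5.32 and 5.26).

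The classes took similar shares of both arms, except that the short arm had more of its peaks in introns and fewer outside genes. Summits within 1 kb of a TSS made up 7.19% of short arm peaks (506) and 6.48% of long arm peaks (429). Introns held 3354 short arm peaks (47.6%, 46.5 to 48.8) and 2818 long arm peaks (42.6%, 41.4 to 43.7). Outside protein-coding genes lay 2588 (36.8%, 35.6 to 37.9) and 2772 (41.9%, 40.7 to 43.1). The rest of the promoter window held 359 and 374 peaks, and exons held 234 and 229. How much of each arm's sequence is intron or lies outside genes was not measured, and its part in these shares was not tested.

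Peaks were assigned to a gene when they overlapped the promoter window used in the study, which spans 5 kb before and 2 kb after the TSS. Of the protein-coding genes with a position, 668 of 1060 (63.0%, Wilson interval 60.1 to 65.9) had a peak on the short arm and 577 of 965 (59.8%, 56.7 to 62.8) on the long arm, against 57.2% (11367 of 19881) over all chromosomes. The difference of -3.23 percentage points had a Newcombe interval of -7.46 to 1.02, which includes 0. With a peak near any annotated transcript start, the shares were 72.5% and 68.3%, and the difference of -4.16 points (-8.14 to -0.184) excluded 0.

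**Figure D5:**
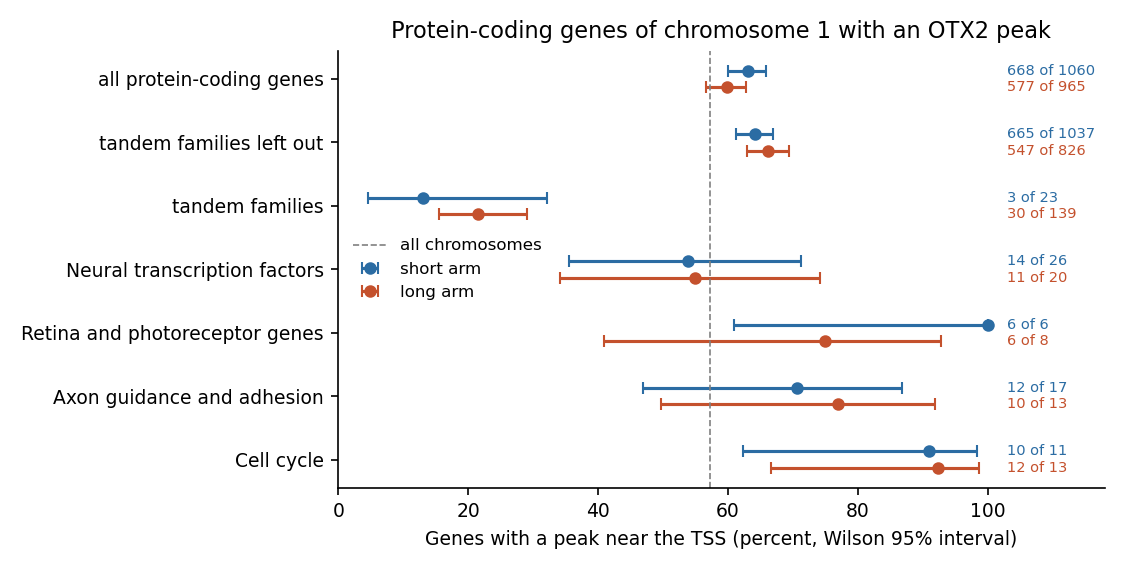
Percent of protein-coding genes with an OTX2 peak in the promoter window, 5 kb before to 2 kb after the TSS, by arm and gene list, with Wilson 95% intervals, counts at the right and a dashed line at 57.2%, the share over all chromosomes. Tandem families lie at 13% and 21.6%, and the cell cycle lists at 90.9% and 92.3%.

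Tandem gene families weighed on the long arm. They made up 139 of its genes, of which 30 had a peak (21.6%), and 23 of the short arm genes, of which 3 did (13%). Without them the shares were 665 of 1037 (64.1%) and 547 of 826 (66.2%), and the difference changed sign to 2.1 percentage points (-2.27 to 6.42). That interval includes 0 too.

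Most of these families serve other tissues. Of the long arm genes of the skin barrier, 1 of 19 late cornified envelope (LCE) genes and 1 of 11 small proline-rich (SPRR) genes had a peak. Olfactory receptors, odorant sensors of the nose, had a peak at 4 of 60 long arm genes and 1 of 2 short arm genes. None was found at the 5 CD1 genes of lipid antigen presentation, the 6 Fc receptor-like genes or, on the short arm, the 12 PRAME family and the 5 amylase genes. SLAM family genes of immune cells had 1 of 5 and NBPF genes 2 of 4 on the short and 2 of 2 on the long arm. S100A genes of calcium-binding proteins stood higher, at 8 of 16.

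Histone genes had a peak at 13 of 15 long arm genes (86.7%, 62.1 to 96.3), against 59.8% of all long arm genes and 57.2% over all chromosomes. Their strongest peaks had a median of 213 fragments and a fold enrichment of 8.76. The cluster includes near-identical gene copies and some of its genes shared a peak, so the values per gene are uncertain. The longest peak of the chromosome, 4856 bp (chr1:149884513-149889368), covered H2BC21 with 212 fragments at a local input of 17.

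At genes with a peak, the arms differed in height and input but not in fold enrichment beyond counting error. The strongest peak per gene, by fold enrichment, had a median of 49 fragments (47 to 53) on the short arm and 80 (72 to 85) on the long arm, at median inputs of 4.68 and 7.86. Its fold enrichment was 6.42 (6.08 to 6.74) and 6.44 (6.02 to 6.78), with overlapping intervals, whereas over all peaks it was lower on the long arm. The mean number of peaks per gene with one was 1.56 and 1.65.

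Highest on the short arm was TGFBR3, a co-receptor of the TGF-beta family, at a fold enrichment of 42.6, with 321 fragments (287 to 358) at a summit 1146 bp downstream of the TSS. KLF17, a Krüppel-like factor of the early embryo, followed at 38.5 with 302 fragments. The next were ALG6, a glucosyltransferase of N-glycan assembly (32.8), AMPD2, an AMP deaminase (32.1), and KIAA1522 (31.3). All 5 stood on inputs between 3.99 and 4.8, near the floor.

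Long arm genes were led by FAM72D, with a fold enrichment of 33.4 and 281 fragments at a summit 396 bp upstream of its TSS. Its peak is that of the adjoining SRGAP2B promoter, in a region of near-identical copies. PROX1, a homeodomain factor of neurogenesis and lymphatic development, followed at 32.2 with 271 fragments (240 to 305) 4573 bp upstream. RAB3GAP2, a regulator of RAB GTPases, had 31.3 with 297 fragments, DHX9 had 28.1 with 353, and ZBTB7B, a zinc finger factor of T cell lineage choice, had 27.7 with 225. Among these 5, inputs ran from 5.00 to 8.26.

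Among neural transcription factors, 14 of 26 short arm genes and 11 of 20 long arm genes had a peak, near the 57.2% of all genes. The highest on the short arm were SKI, a co-repressor of TGF-beta signalling (fold enrichment 13, 87 fragments), ID3, an inhibitor of proneural bHLH factors (10.8, 76 fragments), and LHX8, a LIM homeodomain factor of forebrain neurons (9.91, 93 fragments). The summit at ID3 lay 5229 bp upstream of the TSS, so that only the edge of its peak reached the window. PROX1 on the long arm was followed by HLX, a homeobox factor (9.76, 158 fragments), and POU2F1, the octamer-binding factor OCT1 (8.35, 237 fragments). POU2F1 shows how height and enrichment part where input is high: its input was 20.0, so that 237 fragments gave a lower enrichment than the 87 fragments of SKI.

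Several neural factors had no peak in the window. For DMRTA2 and FOXD3 of the short arm, the nearest summit lay 24.6 and 4.04 kb away, on an arm with 57.9 peaks per Mb. Neither gene body held a peak, and whether these summits belong to those genes was not tested. The long arm genes ATF3 and ESRRG had no peak in the window either. ESRRG, an orphan nuclear receptor, had 51 peaks within its gene body of 634510 bp, on an arm with 62.5 peaks per Mb. The nearest summit to its TSS lay 29.1 kb upstream with 152 fragments. The annotated TSS is the 5′ end of the gene record.

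Retina and photoreceptor genes, of interest because OTX2 acts in the eye, had a peak at 6 of 6 short arm genes (100%, 61 to 100). On the long arm it was 6 of 8 (75%, 40.9 to 92.9), an interval that includes the 57.2% of all genes. The short arm interval includes the 63.0% of all short arm genes. ABCA4, the retinoid transporter of photoreceptors, had 135 fragments (113 to 160) at 20.1-fold enrichment, 42 bp from its TSS. RPE65, the isomerase of the visual cycle, had 151 fragments at 18.7-fold, 45 bp from its TSS. CLCC1, a chloride channel gene, had 54 fragments at 8.16-fold. These 3 short arm peaks stood on inputs of 3.99 to 5.00.

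On the long arm, RD3, a regulator of photoreceptor guanylate cyclase, had 369 fragments (332 to 409) at 20.9-fold and an input of 12, taller than ABCA4 at like enrichment. RGS16, a regulator of G-protein signalling, had 88 fragments at 9.56-fold. CRB1, a polarity protein of photoreceptors, and PDC, phosducin, had no peak in the window, and the nearest summits lay 8.80 and 3.98 kb downstream.

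Axon guidance and adhesion genes had a peak at 12 of 17 short arm and 10 of 13 long arm genes with a position. Both shares (70.6%, 46.9 to 86.7, and 76.9%, 49.7 to 91.8) had intervals that include the 57.2% of all genes. On the short arm, PIK3R3, a regulatory subunit of phosphoinositide 3-kinase, and GNG12, a G-protein gamma subunit, each had 187 fragments (161 to 216) at 26.3- and 21.7-fold. WNT2B, a WNT ligand, had 124 fragments at 11.5-fold. On the long arm, SEMA6C had 211 fragments at 26.6-fold, PLXNA2, a semaphorin receptor, had 109 at 13.1-fold, and EFNA3, an ephrin ligand, had 67 at 10.1-fold. EFNA4, next to EFNA3, had 32 fragments (22 to 45) at 4.09-fold, below most peaks of the chromosome.

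Guidance genes with no peak in the window were EPHA10, EPHA8 and EPHB2 among those of the short arm, and CNTN2, WNT3A and WNT9A on the long arm. EPHB2, an ephrin receptor, had 18 peaks in its gene body of 210662 bp, on an arm with 57.9 peaks per Mb. Its nearest summit, 53.2 kb downstream of the TSS, had 288 fragments at 35.5-fold enrichment. CNTN2, an axonal contactin of the long arm (62.5 peaks per Mb), had 3 peaks in its gene body of 35353 bp and a nearest summit 9.18 kb upstream.

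Cell cycle genes had a peak at 10 of 11 short arm and 12 of 13 long arm genes (90.9%, 62.3 to 98.4, and 92.3%, 66.7 to 98.6), against 57.2% of all protein-coding genes. The short arm interval includes the 63.0% of all short arm genes. That of the long arm lies above the 59.8% of all long arm genes, but its lower bound is close to the 66.2% found without tandem families. Whether the listed genes differ from other genes was not tested. The short arm examples were KIF2C, a mitotic kinesin (121 fragments, 17.3-fold), CDC20, an activator of the anaphase-promoting complex (99, 14.8-fold), and RBBP4, a histone-binding chaperone (117, 8.70-fold). The long arm examples were KIF14, a kinesin of cytokinesis (355, 26.5-fold), MDM4, an inhibitor of p53 (230, 15.5-fold), and NEK2, a centrosomal kinase (230, 14.2-fold). These 3 long arm peaks were taller than the short arm ones and stood on inputs of 8.89 to 11.0. The summit at NEK2 lay 5380 bp upstream of the TSS, so that only the edge of its peak reached the window. CDK11B on the short arm and NUF2 on the long arm had no peak in the window, and CDK11B has a near-identical neighbour, CDK11A.

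The tallest peaks named here lay away from promoters, as did most peaks of both arms. Summits within 1 kb of a TSS made up 7.19% of all short arm peaks and 6.48% of all long arm peaks. The rest of the promoter window held 5.10% and 5.65%. The strongest peaks of genes in the promoter window, by fold enrichment, reached 321 fragments on the short arm and 428 on the long arm. Whether tall peaks differ from the others in position was not tested. On the short arm, 370 fragments (333 to 410) were reached 12.3 kb upstream of TRNP1, a nuclear regulator of cortical progenitors (chr1:26980763-26981866), 365 in an intron of the sialyltransferase gene ST6GALNAC3, and 360 in an intron of PRDM2. On the long arm, 437 fragments (397 to 480) were reached in an intron of RABGAP1L (chr1:174806938-174808363), 433 in an intron of ACBD6 and 429 in an intron of ABL2, the kinase ARG. The short arm peaks had fold enrichments of 30.3, 33.7 and 33.2 and the long arm peaks 35.6, 26.1 and 19.8, at inputs of up to 15. The longest short arm peak, 3779 bp, lay 148 kb upstream of LHX8. After the histone peak, the longest on the long arm were 3937 bp, 11.3 kb upstream of RGS16, and 3819 bp, 1.09 kb upstream of SOAT1. Those next in length on the short arm were 3208 bp in ERI3 and 3201 bp at CTH.

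The densest 1 Mb stretches matched between the arms. On the short arm, chr1:44000000-44999999 held 133 peaks, and 14 of its 16 genes had a peak, among them KLF17, KIF2C and the polo-like kinase gene PLK3. On the long arm, chr1:205000000-205999999 held 135 peaks, and 13 of its 18 genes had one, among them RBBP5, a subunit of histone H3K4 methyltransferases, and the kinase gene CDK18. Median heights there were 51 and 58 fragments, and median inputs 4.91 and 7.0. Over the whole arms, 63.0% and 59.8% of genes had a peak. The stretches were chosen for their many peaks, so their gene counts cannot be weighed against these shares.

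The longest stretches between neighbouring summits held few or other kinds of genes. That of the short arm, chr1:29515201-30708178, spanned 1.19 Mb with 1 protein-coding gene. That of the long arm, chr1:158520196-158998994, spanned 0.479 Mb with 12 genes, among them 9 olfactory receptors and the interferon-inducible genes MNDA and PYHIN1. None of the 12 had a peak, which the choice of a stretch without summits largely sets.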

How the data were processed

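In 1 OTX2 ChIP library and 1 input library of D283 tumorspheres, the authors used Bowtie2 2.2.4 to align reads to GRCh38 and MACS2 2.1.0.20140616 to call peaks, per the submitters' processing notes and the file header (paired ends, 1 fragment per position kept, q cutoff 0.05, effective genome size 2700000000). The header gives 84980793 ChIP fragments, 61259377 after filtering, and 32292980 input fragments, 22521186 after filtering. The deposited pileup is a signal scaled for depth, fold enrichment as deposited is their ratio (pileup plus 1 over local input plus 1), and p and q were deposited as −log10 values.

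Height was the pileup divided by 0.735, which left no value more than 0.0068 from a whole fragment. Local input was (pileup + 1) / fold enrichment − 1. It is the largest of several local estimates and the genome mean (floor 3.98), and 54.3% of peaks above the floor came within 0.01 of a whole number. The value 0.735 was computed from the input and ChIP fragments after filtering and is larger than their plain ratio. Why 1 ChIP fragment is worth 0.735 is not given in the sources used here, so the unit of local input is uncertain. High local input meant at least 12. The long arm was measured to 248937099, the last annotated gene or peak end. Gene positions were the GRCh38 positions that GENCODE release 44 (lifted) records, present for 19881 of 20175 protein-coding genes. SRGAP2 was without one and left out of gene counts. Some listed genes are not reported here by name. Promoters and their sequences were from RefSeq (GRCh38.p14).

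Named genes were, per arm, the 5 with the highest fold enrichment, the 3 tallest and 3 longest peaks, the densest 1 Mb window and longest stretch without a summit, up to 3 genes with the highest fold and 3 with none (the first in alphabetical order) of each list, and chromosome 1 genes the study names. H2BC21's cluster and the promoters shown were chosen after their values were seen. The members and lists were chosen with earlier results of these data known. Intervals were exact binomial, Poisson (fragments), order-statistic (medians), Wilson and Newcombe, at 95%. For ratios of medians, the lower bound of the long arm was divided by the upper bound of the short arm, and the reverse. These intervals are wider than 95% intervals. Scripts were tested on simulated data. Alternatives changed the peak threshold, boundaries, high-input peaks, arm length, TSS definition and gene set. Tables were handled with numpy 2.4.6 and pandas 2.3.3, intervals with scipy 1.17.1 and plots with matplotlib 3.10.9, under Python 3.11.15.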

Additional observations from a re-analysis of the deposited data

How the results depend on the processing

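The higher input of the long arm and its smaller share of peaks at the floor kept their direction under every alternative tried. The input ratio ran from 1.37 to 1.49 over 6 alternatives, the difference in the floor share from -24.0 to -22.6 percentage points over 4, the pileup ratio from 1.18 to 1.36 over 5 and the fold ratio from 0.900 to 0.965 over 4. Keeping only peaks of at least 5-fold enrichment left 8078 peaks, with a density ratio of 0.974, a pileup ratio of 1.36 and a fold ratio of 0.965 (0.921 to 1.01), whose interval includes 1. Leaving out peaks of high local input gave a density ratio of 0.971, a pileup ratio of 1.18, an input ratio of 1.42 and a difference in gene shares of -7.51 percentage points (-11.8 to -3.22), a construction that removes more long arm peaks. Only peaks above the floor gave an input ratio of 1.37, and counting peaks per protein-coding gene gave a density ratio of 1.03 (0.999 to 1.07), whose interval includes 1. The difference in gene shares was -4.16 (-8.14 to -0.184) with any transcript start, 2.1 without tandem families and, with any RefSeq start and no tandem families, an alternative chosen after seeing the data, 1.67. Peaks with −log10 q of at least 5 turned the difference in summits near a TSS from -0.159 (-1.26 to 0.941) to 0.0286 percentage points. The cause of these changes was not tested.

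No paired analysis was possible because each condition had 1 library and no result came from a test. With 1 ChIP library, counting intervals say nothing of how the arms would vary between cultures, and the floor hides local inputs below 3.98.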

Other observations

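MicroRNA hairpins, which the gene counts above leave out, had a peak in the window around their 5′ end at 21 of 71 on the short arm (29.6%, Wilson interval 20.2 to 41.0) and 27 of 65 on the long arm (41.5%, 30.4 to 53.7), with overlapping intervals. The window was set on the hairpin and not on the start of the primary transcript. Over all chromosomes, 57.2% of protein-coding genes had a peak in the promoter window, and a share over all hairpins is not given here. Neighbouring hairpins that share a peak were counted separately, which the intervals do not allow for. The named microRNAs were chosen for their known roles in neural cells after other values had been seen. On the short arm, MIR137 had 5 peaks in its window, the strongest with 58 fragments at 8.75-fold enrichment. On the long arm, MIR9-1 had 2 peaks, the stronger with 167 fragments at 7.74-fold and a local input of 15. MIR181A1 and MIR181B1, neighbours in one cluster, shared a peak of 264 fragments at 17.6-fold. MIR34A and MIR200B on the short arm and MIR214 on the long arm had none in the window.

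Their mature sequences (RefSeq, GRCh38.p14) are given to identify them, with the seed, bases 2 to 8, in capitals.
hsa-miR-137-3p: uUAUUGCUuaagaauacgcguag
hsa-miR-9-5p: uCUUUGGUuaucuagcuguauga
hsa-miR-181a-5p: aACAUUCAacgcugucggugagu
hsa-miR-181b-5p: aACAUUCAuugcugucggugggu
The last 2 share a seed, and the others have seeds of their own.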
